A study of Mus musculus with 185 samples.

Results

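Mt1, Mt2 and Mt3 encode metallothioneins. They were followed here by gene symbol and make up 3 of the 57010 genes of a count matrix from mouse brain. All mice were male C57BL/6 J, an inbred laboratory strain, and 8 weeks old. Mice of the 16 h study lived in pairs (2 in a cage) and were either kept on chow (6 mice), fasted (6 mice) or switched to a high-fat diet (HFD, 6 mice). In the 24 h study, singly housed mice were kept on chow (9 mice) or fasted (10 mice) after 3 days of acclimation. Bulk RNA of 5 brain regions per mouse was sequenced: hypothalamus, hippocampus and both colliculi in either study, with prefrontal cortex at 16 h and zona incerta at 24 h. The 185 columns of the matrix carry the mouse in their heading and were not assigned to a region, so the 5 columns of a mouse were summed, and the mouse was the replicate. Levels are given as CPM, the counts of a gene scaled to 1000000 gene counts per mouse. In pooled tissue of this kind, a change in the number of cells of a type and a change in RNA per cell cannot be told apart.

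Metallothioneins are small, cysteine-rich proteins that bind zinc and copper. Mt1 and Mt2 are expressed in many tissues, in the brain mainly in astrocytes, and are known for their induction by metals and by glucocorticoids. Metals act through the transcription factor MTF1, which binds short metal response elements (MREs) near the start of the genes. Mt3 is the neural form, first described as a growth inhibitory factor of the brain, and is known to respond little to metals. Mt4, the last gene of the cluster, belongs to stratified epithelia.

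The 3 genes lie side by side on the plus strand of chromosome 8 within 27736 bases (GRCm39). Mt3 is at chr8:94879220-94881088, Mt2 at chr8:94898819-94900207 and Mt1 at chr8:94905710-94906955. Only 5502 bases separate the end of Mt2 from the start of Mt1, whereas 17730 bases separate Mt3 from Mt2. The promoter windows of the RefSeq table (GRCm38.p6, plus strand, 250 bases before to 50 after the start) are printed because Mt1 and Mt2 differed more between diets at 24 h than Mt3. Capitals mark matches to the MRE core, searched as TGCACNC and TGCGCNC on both strands. The windows are chr8:94178839-94179138 for Mt1, chr8:94172368-94172667 for Mt2 and chr8:94152357-94152656 for Mt3.
Mt1: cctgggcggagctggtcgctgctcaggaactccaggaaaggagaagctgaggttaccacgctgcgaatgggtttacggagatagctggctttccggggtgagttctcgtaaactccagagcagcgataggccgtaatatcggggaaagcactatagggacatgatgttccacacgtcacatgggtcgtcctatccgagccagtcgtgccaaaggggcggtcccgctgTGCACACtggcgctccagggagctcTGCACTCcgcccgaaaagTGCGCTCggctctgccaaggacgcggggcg
Mt2: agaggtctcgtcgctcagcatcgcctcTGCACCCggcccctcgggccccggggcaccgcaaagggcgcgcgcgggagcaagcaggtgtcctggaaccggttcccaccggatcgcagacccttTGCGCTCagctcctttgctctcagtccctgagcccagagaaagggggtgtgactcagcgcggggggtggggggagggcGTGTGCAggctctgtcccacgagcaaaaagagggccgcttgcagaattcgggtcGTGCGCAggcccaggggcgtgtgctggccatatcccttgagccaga
Mt3: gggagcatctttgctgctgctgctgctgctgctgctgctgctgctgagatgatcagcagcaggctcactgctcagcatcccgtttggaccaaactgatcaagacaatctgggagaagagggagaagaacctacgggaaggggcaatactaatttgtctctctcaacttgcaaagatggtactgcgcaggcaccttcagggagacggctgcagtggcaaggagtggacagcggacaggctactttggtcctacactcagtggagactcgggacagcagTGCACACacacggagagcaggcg

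The Mt2 window held 4 matches to the MRE core and the Mt1 window 3, whereas the Mt3 window held 1. Among 32851 promoter windows of the table, 0.517% held at least 4 matches, 1.97% at least 3 and 25.7% at least 1. The RefSeq starts are not the only starts of these genes, so the 300 bases directly before the start codon were searched as well (GRCm39, canonical GENCODE transcripts). There, Mt1 and Mt2 held 5 matches each, a number reached by 31 of 21669 protein-coding genes (0.143%). Mt3 held 3 matches, reached by 399 genes (1.84%), and Mt4 held 1. The core of the glucocorticoid response element, TGTTCT on either strand, was in neither window of the 3 genes, and 19% of all promoter windows held it. Bases outside these windows were not searched, so an element farther from the genes would be missed. These matches describe letters and not binding.

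The counts do not measure the 3 genes equally well. The values behave as counts taken without regard to strand. Of 563 genes whose exons lie wholly within exons of the opposite strand, 76.7% had no count in any column, as had 76.1% of 1083 genes covered on their own strand, against 13.2% of 39055 genes without overlap. Mt2 is touched by this, because exons of Gm45774, a long non-coding RNA of the minus strand, cover 783 of its 950 exon bases (82.4%). Only its last 167 bases (chr8:94900041-94900207) are free. Mt2 was accordingly read from 14 to 407 counts per mouse, whereas Mt1 had 2795 to 33713 counts and Mt3 6819 to 28716 counts. The annotation release behind the counts is not given in the sources used here. The level of Mt2 is therefore not set against that of the other genes below, and its ratios between diets rest on reads from the 3' end. No exon of Mt1 or Mt3 overlaps another gene.

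Total counts per mouse ran from 57962237 to 161577364. Of the 95 columns of the 24 h study, 23 were low (under 1000000 counts, or under 16000 genes expected in a draw of 500000 counts), compared with 4 of 90 at 16 h. The low columns at 24 h carried 115 to 619 CPM of Mt1 and 81.0 to 1344 CPM of Mt3, and values without them are given where they differ. According to notes in the labels, the superior colliculus tubes of mouse 1423 (chow) and mouse 1454 (fasted) went into each other's tube, and the methods of the study state that its records were corrected for this. The superior colliculus library of mouse 1455 (fasted) is marked in the labels as failing a check by principal components. Results at 24 h were repeated without these 3 mice. The labels further mark 25 of the 95 libraries at 24 h as failing the study's limit on aligned reads, 12 of chow and 13 of fasted mice, of which 24 came from a block sequenced apart from the rest. Their columns were not identified, but in mice 1422, 1434 and 1445 more columns remained after removal of the low ones than there were passing libraries, so at least 3 failing libraries remained. The comparison was therefore repeated without both the low columns and these mice, an alternative chosen after seeing the data.

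After 24 h of fasting, Mt1 was 2.27-fold higher than on chow. Mt1 stood at 98.1 ± 23.3 CPM in the chow group (SD, n = 9 mice), with a lowest value of 74.6, a median of 82.9 and a highest of 133 CPM. In the fasted group it stood at 213 ± 44.0 CPM (SD, n = 10 mice), with a lowest value of 159, a median of 203 and a highest of 269 CPM. All 10 fasted mice lay above all 9 chow mice. The log2 fold change was 1.18 (SE 0.15, 95% confidence interval 0.86 to 1.502; adjusted p = 2.68e-05, edgeR's quasi-likelihood test with Benjamini-Hochberg adjustment over 29011 genes). Without the low columns, levels fell to 82.8 ± 14.6 CPM on chow (SD, n = 9) and 187 ± 26.6 CPM in fasted mice (SD, n = 10), and the log2 fold change was 1.24. It was 1.21 when mice 1422, 1434 and 1445 were left out as well. Without mice 1423, 1454 and 1455 it was 1.30.

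Mt2, read from its 3' end, rose by a similar factor. It had 1.08 ± 0.255 CPM on chow (SD, n = 9; lowest 0.642, median 1.11, highest 1.58 CPM). Fasted mice had 2.52 ± 0.683 CPM (SD, n = 10; lowest 1.81, median 2.39, highest 3.62 CPM). As for Mt1, the groups did not overlap, but how many of all genes separate them in this way was not counted. The log2 fold change was 1.28 (SE 0.19, 95% confidence interval 0.89 to 1.67; adjusted p = 9.54e-05, edgeR). It stood on 50 to 174 counts per chow mouse and 112 to 407 per fasted mouse. Gm45774, whose counts are uncertain for the same reason, was also higher in fasted mice (log2 fold change 0.77, adjusted p = 0.00193, edgeR) on 19 to 110 counts per mouse.

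Mt3 gave no such separation. Its level was 179 ± 46.5 CPM on chow (SD, n = 9; lowest 135, median 178, highest 261 CPM) and 197 ± 35.1 CPM after fasting (SD, n = 10; lowest 139.8, median 200.2, highest 253 CPM). No fasted mouse lay above the highest chow mouse. The log2 fold change was 0.19 (SE 0.15, adjusted p = 0.497, edgeR), and its 95% confidence interval of -0.13 to 0.51 ends below the intervals of Mt1 and Mt2. The wide spread of Mt3 among chow mice was narrower without the low columns, at 134 ± 18.96 CPM (SD, n = 9), beside 153 ± 22.6 CPM in fasted mice (SD, n = 10). Without them the log2 fold change was 0.26 (adjusted p = 0.111, edgeR). When mice 1422, 1434 and 1445 were left out as well, it was 0.22 and passed the threshold (adjusted p = 0.0222, edgeR). Whether Mt3 is called thus depends on which columns and mice are kept, and the part of the failing libraries was not tested. The size of the Mt3 difference stayed below that of Mt1 (1.21) and Mt2 (1.27). In this comparison 11.4% of all genes tested passed the threshold, 5.78% as higher and 5.62% as lower (higher calls were 50.7% of all calls, but 33.9% with library size alone as the scaling). Of the 3 metallothioneins, 2 passed it, both as higher.

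**Figure D1:**
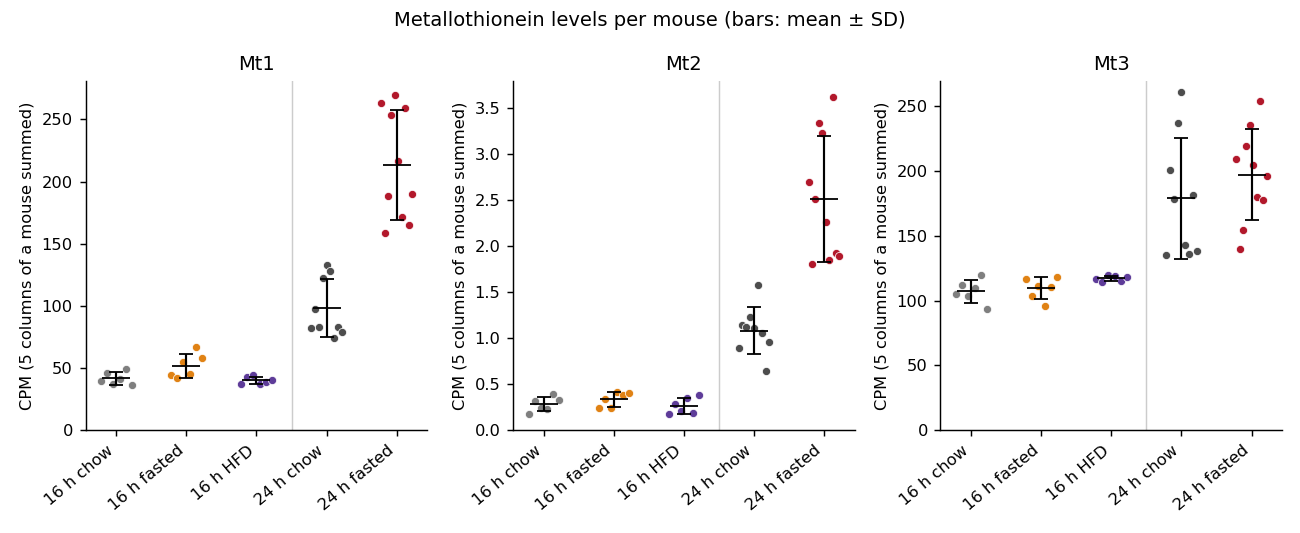
Level of Mt1, Mt2 and Mt3 in CPM (linear axes from 0, a different range in each panel) in each of the 37 mice, by study and diet, with mean and SD as bars. At 24 h the 10 fasted mice lie above the 9 chow mice for Mt1 (159 to 269 against 74.6 to 133 CPM) and Mt2, whereas the Mt3 values overlap.

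At 16 h, no member passed the threshold in any comparison. Mt1 had 41.7 ± 5.11 CPM on chow (SD, n = 6; lowest 36.6, median 40.4, highest 49.2 CPM). It had 52.0 ± 9.62 CPM in fasted mice (SD, n = 6; lowest 42.3, median 49.9, highest 66.8 CPM). With HFD it had 40.1 ± 3.09 CPM (SD, n = 6; lowest 36.9, median 39.5, highest 44.4 CPM). All 6 fasted mice lay above the chow median, and 3 of them above every chow mouse. The log2 difference between fasted and chow mice was 0.34 (95% confidence interval 0.12 to 0.56), with p = 0.00425 before and 0.565 after adjustment over 29746 genes (edgeR). Mt1 on HFD differed from chow by -0.02 (95% confidence interval -0.24 to 0.19; adjusted p = 0.954, edgeR).

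Mt2 was near its counting limit in the 16 h mice, with 14 to 51 counts each. Its levels were 0.284 ± 0.0788 CPM on chow (lowest 0.178, median 0.282, highest 0.399), 0.339 ± 0.0815 CPM after fasting (lowest 0.239, median 0.366, highest 0.421) and 0.266 ± 0.0858 CPM with HFD (lowest 0.182, median 0.252, highest 0.382; SD, n = 6 each). The 3 diets overlapped. The log2 difference from chow was 0.27 with fasting (95% confidence interval -0.21 to 0.75) and -0.07 with HFD (-0.56 to 0.42), so a change of the size seen at 24 h lies outside either interval.

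Mt3 varied least among the 16 h mice. It stood at 107 ± 8.84 CPM on chow (lowest 93.4, median 107, highest 119), 109 ± 8.46 CPM after fasting (lowest 95.6, median 111, highest 118) and 117 ± 2.17 CPM with HFD (lowest 114, median 117, highest 119; SD, n = 6 each). All 6 HFD mice lay above the chow median of 107 CPM and none above the highest chow mouse. The log2 difference between HFD and chow was 0.16 (95% confidence interval 0.04 to 0.28), with p = 0.0142 before and 0.503 after adjustment (edgeR). For fasting it was 0.05 (-0.07 to 0.17). Fasted and HFD mice, set against each other, differed by 0.36 for Mt1 (adjusted p = 0.162), 0.34 for Mt2 (adjusted p = 0.651) and -0.11 for Mt3 (adjusted p = 0.519, edgeR).

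Few genes of any kind were called at 16 h in these sums over 5 regions, which do not show whether a single region responded. With edgeR, 0% of 29746 genes passed the threshold for fasted against chow mice and 0% for HFD against chow, although 2267 and 2914 genes had p under 0.05 before adjustment. DESeq2 called 19 and 5 genes, with none of the 3 metallothioneins among them. For fasted against HFD mice, edgeR called 0.219% of genes.

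**Figure D2:**
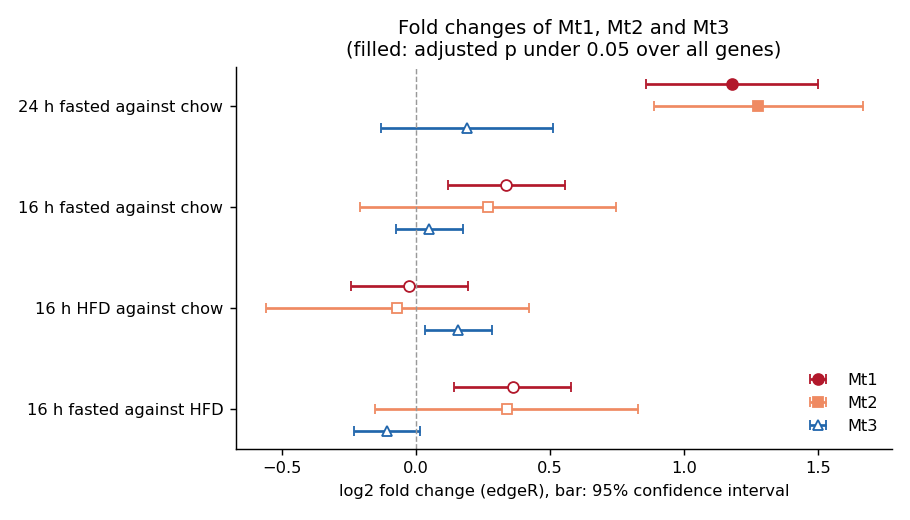
Log2 fold change of Mt1, Mt2 and Mt3 from edgeR with its 95% confidence interval in the 4 diet comparisons; filled symbols passed an adjusted p of 0.05 over all genes. Only Mt1 (1.18) and Mt2 (1.28) at 24 h are filled, and the widest intervals belong to Mt2, which has the fewest counts.

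The fasting effect on Mt1 differed between the studies. In 1 fit over the 37 mice, the effect at 24 h exceeded that at 16 h by 0.85 on the log2 scale (SE 0.21, 95% confidence interval 0.42 to 1.27; adjusted p = 0.0252, edgeR). For Mt2 the difference of the effects was 1.01 (SE 0.32, 95% confidence interval 0.37 to 1.65) and missed the threshold (adjusted p = 0.111, edgeR). It passed without the low columns (1.10, adjusted p = 0.0461) and without mice 1423, 1454 and 1455 (1.20, adjusted p = 0.0238). For Mt3 it was 0.14 (95% confidence interval -0.26 to 0.55; adjusted p = 0.922, edgeR). Among all genes, 1.7% passed this test. Duration, housing, regions and sequencing run changed together between the studies and cannot be told apart.

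The loss of body weight differed as well. Fasted mice changed by -19.5 ± 1.33% at 24 h (SD, n = 10) and by -3.72 ± 2.60% at 16 h (SD, n = 6). Among the 10 fasted mice of the 24 h study, weight change ran from -21.4 to -17.1%, and no relation with Mt1 passed the threshold (Pearson r = -0.29, permutation p = 0.416; Spearman rho = -0.21, permutation p = 0.561; adjusted p = 0.431 over 6 relations). Without the 2 mice farthest from the median weight change, r was 0.23 over 8 mice. Mt2 (r = -0.35, permutation p = 0.330; rho = -0.27, permutation p = 0.448; r = 0.15 over 8 mice) and Mt3 (r = -0.31, permutation p = 0.390; rho = -0.24, permutation p = 0.515; r = 0.20 over 8 mice) did not pass it either, both with an adjusted p of 0.431. At 16 h, Mt1 gave the strongest of these relations (Pearson r = -0.92, exact permutation p = 0.0111; Spearman rho = -0.83, exact permutation p = 0.0583; n = 6), which missed the threshold over the 6 relations (adjusted p = 0.0667). The value rests on 1 cage, since without its 2 mice r was -0.63 over 4 mice. Mice 11 and 12, which shared a cage, changed by -7.52 and -6.49% and had the highest Mt1 levels, 66.8 and 58.4 CPM. The other 4 mice changed by -2.51 to -1.30% and had 42.3 to 54.7 CPM of Mt1. With mice in separate clusters of this kind, a relation within a cluster could not be tested. For Mt2 and Mt3 at 16 h, r was -0.43 (exact permutation p = 0.431; rho = -0.086, exact permutation p = 0.919; r = 0.61 over 4 mice) and -0.50 (exact permutation p = 0.286; rho = -0.60, exact permutation p = 0.242; r = -0.58 over 4 mice), both with an adjusted p of 0.431.

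The ratio of Mt1 to Mt3 within a mouse does not depend on library size or scaling. At 24 h the log2 ratio of Mt1 to Mt3 counts was -0.86 ± 0.30 on chow (SD, n = 9; lowest -1.13, median -0.96, highest -0.15) and 0.11 ± 0.15 after fasting (SD, n = 10; lowest -0.10, median 0.13, highest 0.33). With all columns counted, the groups did not overlap. The difference of 0.97, a 1.96-fold change, had p = 2.17e-05 in a two-sided exact permutation test, the smallest p this design can give, and 0.000195 after adjustment over 9 ratio tests. Leaving out each mouse in turn gave 0.94 to 1.06, and leaving out mice 1423, 1454 and 1455 gave 1.10. Without the low columns the groups did overlap. Chow mouse 1423 then had more Mt1 than Mt3 (121 against 115 CPM), and fasted mouse 1445 had less (165 against 178 CPM). Over the 3 alternatives tried, the difference was 0.98 to 1.10, with an adjusted p of 0.000390 to 0.000699 (exact permutation tests).

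The 16 h mice were lower on this scale than most mice of the 24 h study. The Mt1 to Mt3 ratio was -1.37 ± 0.08 on chow (lowest -1.48, median -1.38, highest -1.27), -1.09 ± 0.23 after fasting (lowest -1.38, median -1.06, highest -0.73) and -1.55 ± 0.11 with HFD (lowest -1.69, median -1.56, highest -1.40; SD, n = 6 each). Fasting and HFD thus stood on opposite sides of the same chow mice. The difference from chow was 0.28 for fasting (exact permutation p = 0.0216, adjusted p = 0.0487) and -0.18 for HFD (exact permutation p = 0.0152, adjusted p = 0.0455). Both calls were fragile. Leaving out 1 of the fasted mice 9, 10, 11 and 12 or of the chow mice 1, 3, 4, 5 and 6 moved the adjusted p for fasting to between 0.0584 and 0.0974, with differences of 0.20 to 0.29, and leaving out the low columns moved it to 0.0584. For HFD, leaving out 1 of the HFD mice 13, 16, 17 and 18 or of the chow mice 2, 5 and 6 moved it to 0.0682, with differences of -0.18 to -0.15. With the 2 mice of a cage averaged, the adjusted p was 0.45 and 0.225, and 3 cages against 3 cannot give an exact permutation p under 0.1.

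**Figure D3:**
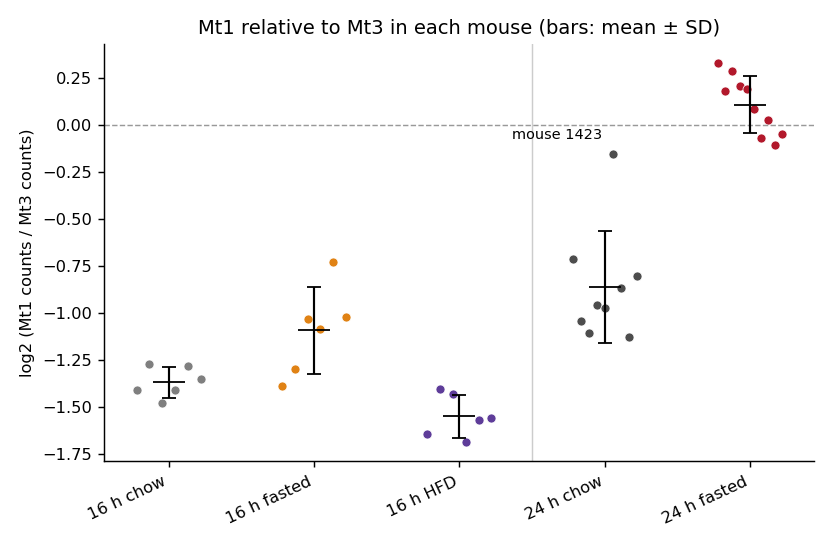
Log2 ratio of Mt1 to Mt3 counts in each mouse, with mean and SD of each group as bars; the dashed line marks equal counts. The 24 h fasted mice lie around 0 (-0.10 to 0.33), 24 h chow mice below them with mouse 1423 nearest (-0.15), and the 16 h groups between -1.69 and -0.73.

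Between the diets at 24 h, Mt2 shifted by about as much as Mt1 and by more than Mt3. At 24 h the log2 ratio of Mt2 to Mt3 was higher in fasted mice by 1.05 (exact permutation p = 8.66e-05, adjusted p = 0.000390), with 1 range reaching into the other (-8.14 to -6.50 on chow, -6.70 to -5.94 after fasting). The ratio of Mt1 to Mt2 differed by -0.08 between these groups (exact permutation p = 0.491, adjusted p = 0.631), against SDs of 0.17 in fasted and 0.30 in chow mice. At 16 h neither ratio with Mt2 passed the threshold for fasting or HFD (adjusted p = 0.526 for Mt2 to Mt3 and 0.866 for Mt1 to Mt2 in both comparisons, exact permutation tests).

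Per length of transcript, and with low columns included, the order of Mt1 and Mt3 turned with fasting. With the lengths of the first listed transcripts, 549 bases for Mt1 and 865 for Mt3, the level at 24 h on chow was 179 ± 42.5 CPM per kb for Mt1 and 207 ± 53.8 for Mt3 (SD, n = 9), with Mt1 above Mt3 in 1 of 9 mice. After 24 h of fasting it was 389 ± 80.2 CPM per kb for Mt1 and 228 ± 40.6 for Mt3 (SD, n = 10), with Mt1 above Mt3 in 10 of 10 mice. The gap on chow leans on the low columns. Without them, Mt3 on chow fell from 179 to 134 CPM and Mt1 from 98.1 to 82.8 CPM, which narrows the gap. Levels per kb were not computed without the low columns, so whether Mt1 still lies below Mt3 on chow there is not shown. At 16 h, Mt1 lay below Mt3 per kb in all 18 mice, at 75.9 ± 9.31 against 124 ± 10.2 on chow, 94.7 ± 17.5 against 126 ± 9.77 after fasting and 73.1 ± 5.62 against 135 ± 2.51 with HFD (SD, n = 6 each). Mt4 had 11 counts in all 37 mice together, at most 2 in a mouse.

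The single columns show how the members vary within a mouse. Of the columns that were not low, the 34 of 24 h chow mice held 63.3 to 238 CPM of Mt1 (median 75.2) and the 38 of fasted mice 60.3 to 638 CPM (median 176). Mt3 had medians of 133 and 143 CPM in these columns. The highest Mt1 column of a mouse exceeded its lowest by a median factor of 1.33 on chow and 1.43 after fasting at 24 h, and by 1.503 on chow, 1.60 after fasting and 1.83 with HFD at 16 h. Columns of a mouse are not replicates, and the part of region and of library quality in this span was not tested. The upper ends came from columns of mouse 1422 (238 CPM) and mouse 1434 (638 CPM), which, with mouse 1445, are the mice that must still hold failing libraries among these columns. In the other 8 mice of either diet, columns ran from 63.3 to 183 CPM on chow (30 columns) and from 60.3 to 234 CPM after fasting (29 columns).

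Mt1 counts were below Mt3 counts in 33 of 34 chow columns and above them in 31 of 38 fasted columns at 24 h. The exception on chow was a column of mouse 1423, with 183 CPM of Mt1, 101 CPM of Mt3 and a log2 ratio of 0.86, in 38141953 counts. The other 3 columns of this mouse had 67.8 to 85.7 CPM of Mt1 and ratios of -1.29 to -0.42. The lowest Mt1 level of any fasted column, 60.3 CPM, belonged to mouse 1454, at a log2 ratio of -0.63 in 5309294 counts. In the 8 chow mice other than 1423, the ratio was below 0 in 30 of 30 columns (-1.86 to -0.21). In the 8 fasted mice other than 1454 and 1455, it was above 0 in 26 of 30 columns (-0.71 to 0.93). Whether the columns that stand apart are the crossed tubes was not tested.

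**Figure D4:**
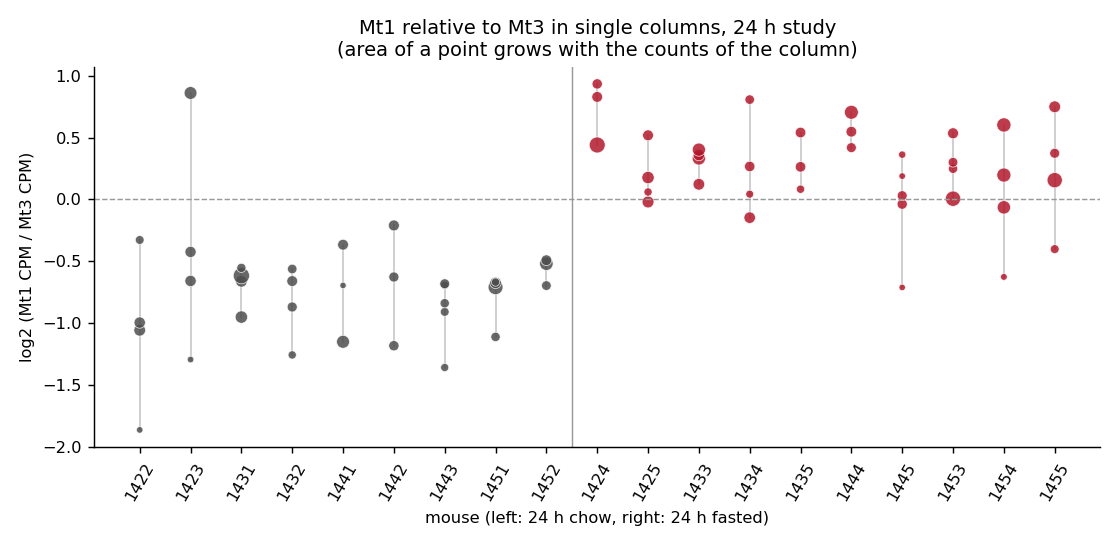
Log2 ratio of Mt1 to Mt3 in each column of the 24 h mice that was not low, by mouse; the area of a point grows with the counts of its column and grey lines join the columns of a mouse. All chow columns but 1 of mouse 1423 (0.86) lie below the dashed line of equal CPM, and 31 of 38 fasted columns lie above it.

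Other genes of metal handling were called at 24 h about as often as genes at large, 5 of 37 (13.5%) beside the 11.4% of all genes. Mtf1, the metal-responsive transcription factor itself, differed by 0.08 (39.3 against 38.6 CPM, adjusted p = 0.361, edgeR). Of 7 genes listed as this factor and its other known targets, 2 were higher and 1 lower, with a median log2 difference of 0.14 against -0.0044 over all genes. The higher ones were Slc30a1, which exports zinc across the plasma membrane (0.15, adjusted p = 0.0490), and Gclc, a subunit of the enzyme that starts glutathione synthesis (0.21, adjusted p = 0.00128). The lower one was Slc39a10, a zinc importer (-0.24, adjusted p = 0.0277). Each of these differences was smaller than the lower end of the interval of Mt1, 0.86.

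Of 9 zinc exporters tested, 1 was higher (Slc30a1) and 1 lower (Slc30a10, a manganese exporter, -0.37, adjusted p = 0.00375), with a list median of 0.11. Slc30a3, which loads zinc into synaptic vesicles, had 14.3 CPM in fasted and 12.7 CPM in chow mice (adjusted p = 0.764). Of 14 zinc importers, 1 was higher (Slc39a14, 0.27, adjusted p = 0.0335) and 1 lower (Slc39a10), with a median of 0.02. Of 9 genes of copper handling, none passed edgeR's test, and the median was 0.07. Of 11 targets of NRF2, the regulator of the response to oxidative stress, Gclc was higher and Slc7a11, the cystine transporter, lower (-0.90, adjusted p = 0.000255), with a median of 0.15. At 16 h, none of the genes of these lists passed edgeR's test for fasting or HFD against chow.

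Glucocorticoid-responsive genes were higher together with Mt1 and Mt2. Of 15 listed genes, 15 passed the test as higher at 24 h, beside 5.78% of all genes tested. The list median was a log2 difference of 1.56. The list was drawn up with earlier results of these mice known and is no independent evidence of its direction. By lowest adjusted p they were led by Sgk1, a kinase (2.36, adjusted p = 5.17e-09), Nfkbia, the inhibitor of NF-kappa B (1.61, adjusted p = 5.17e-09), Plin4, a lipid droplet protein (3.27, adjusted p = 2.37e-08), and Klf15, a transcription factor (1.10, adjusted p = 4.32e-08, edgeR). The values of Mt1 (1.18) and Mt2 (1.28) lie within the span of this list, but genes chosen in this way cannot test a link with them. The part of glucocorticoids in the levels of Mt1 and Mt2 was not tested. Nr3c1, the glucocorticoid receptor, was lower (-0.31, adjusted p = 0.0469). At 16 h the list had a median of 0.20 for fasting with no gene past edgeR's threshold. Hif3a was the 1 gene of the list that was higher in fasted than in HFD mice (1.13, adjusted p = 0.0462, edgeR), in a comparison where 0 genes were called with cage sums or without fasted mouse 11.

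**Figure D5:**
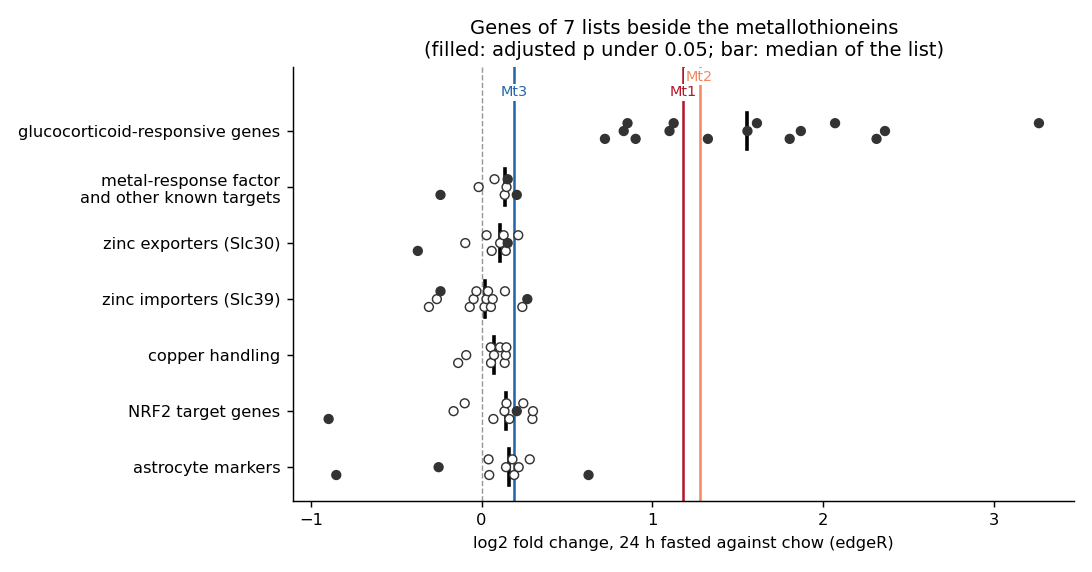
Log2 fold change between fasted and chow mice at 24 h for the genes of 7 lists (points, filled where adjusted p was under 0.05; black bars, list medians), with vertical lines at Mt1 (1.18), Mt2 (1.28) and Mt3 (0.19). The glucocorticoid-responsive genes spread around the lines of Mt1 and Mt2, and the lists of metal handling lie near 0. The lists were chosen with earlier results of these mice known, so the place of the glucocorticoid-responsive genes is no independent evidence.

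Markers of cell types were examined beside Mt1, since astrocytes are its main source. Of 10 astrocyte markers, Glul, glutamine synthetase, was higher (0.63, adjusted p = 0.000471), and Aqp4, the water channel of astrocyte endfeet (-0.85, adjusted p = 1.34e-05), and Gja1, a gap junction protein (-0.25, adjusted p = 0.0271), were lower. Gfap differed by 0.05 (adjusted p = 0.889) and Aldoc by 0.28 (adjusted p = 0.122, edgeR). The 10 markers summed to 6217 ± 289 CPM on chow (SD, n = 9; 5650 to 6558 CPM) and 7167 ± 394 CPM after fasting (SD, n = 10; 6528 to 7803 CPM), ranges that met only at their ends. The list median was 0.16. Of 10 neuron markers, none passed edgeR's test, which 11.4% of all genes passed.

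Of the other marker lists, 1 of 6 oligodendrocyte genes was higher (Mobp, 0.52) and 3 of 6 microglia genes were lower (P2ry12, Tmem119 and Cx3cr1). Lower too were 2 of 5 endothelial genes (Cldn5 and Flt1) and 3 of 5 genes of meningeal fibroblasts (Lum, Col1a1 and Col1a2). Over all genes tested, 5.78% were called as higher and 5.62% as lower. Meningeal fibroblast markers summed to 40.4 to 168 CPM on chow and 36.6 to 78.9 CPM after fasting. Choroid plexus and ependymal markers, of which none passed edgeR's test, summed to 36.3 to 1776 CPM on chow and 37.8 to 4101 CPM after fasting. At 16 h, the endothelial gene Slco1a4 was higher in fasted than in HFD mice (0.30, adjusted p = 0.0343, edgeR), a call likewise lost with cage sums and without fasted mouse 11. The part of these cell types in the levels of Mt1 and Mt2 was not tested.

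Neighbouring genes of the cluster were examined next. Of 16 genes that start within 200 kb of the cluster, 12 had enough counts for the test at 24 h, and 2 passed it (16.7%, beside 11.4% of all genes), both as higher. These were Gm45774, which overlaps Mt2, and Slc12a3, a sodium chloride cotransporter (log2 fold change 0.80, 1.37 against 0.820 CPM, adjusted p = 0.0238, edgeR). The median over the 12 was 0.15.

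Within groups, the 5 genes most like each member differed, save for Eva1a, which Mt1 and Mt2 shared. Across mice, with each value taken relative to the mean of its study and diet, log2 CPM of Mt1 and Mt2 had r = 0.82 at 24 h (19 mice) and r = 0.26 at 16 h (18 mice). Mt1 and Mt3 had r = 0.79 and 0.59, and Mt2 and Mt3 r = 0.53 and 0.02. Among 12975 genes whose log2 CPM averaged 2 or more in each study, those most like Mt1 by the mean r of the 2 studies were Smox, Tsc22d4, Rin2, Eva1a and Ndufa12 (0.80, 0.79, 0.79, 0.79 and 0.78). For Mt2 they were Cmtm3, Rer1, Ciao2b, Nfkbia and Eva1a (0.68, 0.67, 0.65, 0.64 and 0.64). For Mt3 they were Rplp0, Rplp1, Rpl7a, Bola2 and Mrfap1 (0.94, 0.92, 0.86, 0.86 and 0.85), 3 of which encode ribosomal proteins. Genes of a mouse share its libraries and their depth, so these values are descriptive. Genes of cytosolic ribosomal proteins took 0.569 to 1.25% of counts in the 24 h mice and 0.412 to 0.465% in the 16 h mice, and mitochondrial genes took 8.57 to 16.7% and 3.78 to 4.98%. Their means in the 24 h study were 0.811 and 10.9% on chow and 0.808 and 10.7% after fasting.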

How the data were processed

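Body weights and bulk RNA-seq of 5 regions per mouse were available for 37 mice. The authors depleted ribosomal RNA, made strand-marking libraries, called bases with bcl2fastq 2.20.0, aligned to GRCm39 with STAR 2.7.3a and deposited raw counts per Ensembl gene, without normalization. Which of STAR's count columns was used is not given in the sources used here. No 2 columns held identical values, and 56310 genes had a symbol in GENCODE vM39.

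Counts were summed over the 5 columns of a mouse, low columns included, filtered with filterByExpr, scaled by TMM and tested with the glmQLFit and glmQLFTest functions of edgeR 4.0.16 (R 4.3.3) at an adjusted p under 0.05. The 3 diets at 16 h shared 1 fit, and the difference of fasting effects came from 1 fit over 5 groups. Ratios were tested over mice with two-sided exact permutation tests (scipy 1.17.1). Relations with weight change used 100000 permutations for the 24 h mice and exact permutation tests for the 16 h mice. CPM used all gene counts; log2 CPM for likeness used a prior count of 2 and TMM. Nothing shows whether mice of a cage differ as independent animals would, so cage sums were one alternative. Others were DESeq2 1.42.0 (sum of counts over 10), other size factors, no filter, no low columns, limma 3.58.1 with equal weight per column, clock time or round of cages as covariates, no mice 1423, 1454 and 1455, no low columns or mice 1422, 1434 and 1445, and each mouse left out. On counts simulated for 24 h fasted against chow with 200 genes changed by 1 on the log2 scale, edgeR recovered 193 with 8 false calls among 28713 genes. The changed genes were drawn from those averaging over 200 counts per mouse, so recovery of genes with fewer counts, such as Mt2 at 16 h, was not tested.

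The members, lists and limits for low columns were chosen with earlier results of these data known. Beside the members, the genes named are those past the threshold in a list, up to 4 by adjusted p, 7 given in any case (Mt4, Mtf1, Slc30a1, Slc30a3, Nr3c1, Gfap and Aldoc), called neighbours within 200 kb and the 5 genes most like each member. Promoter windows came from RefSeq (GRCm38.p6), with 3 of 3 members matched.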

Additional observations from a re-analysis of the deposited data

Results flagged for a closer look

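Mouse 1423 of the 24 h chow group stood apart in the Mt1 to Mt3 log2 ratio, at -0.15, whereas the nearest other chow mouse was at -0.71. Its gap covered 0.575 of the range of the group, over the limit of 0.493 for 9 mice. It was the only one of 30 groups of values examined in this way to stand out, and chance alone picks about 1 group in 20. The labels note a crossed tube for this mouse.

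The fasting effect on Mt1 was larger at 24 h than at 16 h by 0.85 on the log2 scale (adjusted p = 0.0252, edgeR over 30849 genes). It held this side of the threshold in all 5 alternatives tried, with 0.81 to 0.97. The studies differ in more than duration.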

How the results depend on the processing

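At 24 h, the calls for Mt1 (1.12 to 1.30 over 9 alternatives, 1.12 to 1.26 with 1 mouse left out), Mt2 (1.21 to 1.54 and 1.18 to 1.37) and Mt3 (0.14 to 0.26 and 0.12 to 0.28, not past the threshold) kept their side of the threshold, as did the ratios, with 1 exception. Without low columns and mice 1422, 1434 and 1445, Mt3 passed it (0.22, adjusted p = 0.0222). The count of called genes was 2614 to 4213 against 3307. With library size alone the higher share of the called genes was 33.9%, against 50.7%. At 16 h, DESeq2 called 19 genes for fasting and 5 for HFD. The count for fasted against HFD mice was 65, but 354 with DESeq2, 26 without a filter, 142 with clock time, 176 with equal weight per column, 0 with cage sums and 0 to 101 with 1 mouse left out (0 without fasted mouse 11). The Mt1 difference for HFD ran from -0.060 to 0.026 and that of Mt2 from -0.20 to 0.056 with 1 mouse left out, and Mt2 was at 0.0018 with equal weight per column. The Mt2 difference between studies passed the threshold without low columns (1.10) and without mice 1423, 1454 and 1455 (1.20). The Mt1 to Mt3 ratio at 16 h lost its call for fasting without low columns (0.27) and with cage means (0.28), and for HFD with cage means (-0.18). With 1 mouse left out it ran from 0.20 to 0.33 and from -0.21 to -0.15. The Mt1 to Mt2 ratio ran from -0.074 to 0.15 for fasting and -0.029 to 0.17 for HFD. The cause of these shifts was not tested, save that cage means leave 3 values per diet. The alternatives with cage means, without mice 1422, 1434 and 1445, with the difference between studies without mice 1423, 1454 and 1455 and with weight relations without low columns were chosen after seeing the data. Leaving out a mouse was not applied to the difference between studies or to weight relations.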
